A study of Caenorhabditis elegans with 6 samples.

Results

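The nhr genes encode the nuclear hormone receptors of the nematode Caenorhabditis elegans that carry a family symbol, nhr followed by a number. Members were the genes other than nhr-57 whose array probes could be matched to such a symbol. Of 282 such genes in the gene table, 280 had a probe (nhr-244 and nhr-75 had none), among 19811 named genes with a probe on the array. They were measured by 451 probes. Total RNA came from whole young adults taken before reproduction began, grown on NGM agar with OP50 bacteria. The wild type strain, WTN2, was compared with RB1035, a strain with a mutant flcn-1 allele that had been backcrossed 8 times according to the design text. Folliculin, the human relative of the flcn-1 product, is a tumour suppressor tied to energy sensing and TOR signalling. Each strain had 3 biological replicates, each on its own 1-colour Agilent array, and they are called wild type 1 to 3 and mutant 1 to 3. The labels give neither the sex of the animals nor the lesion in the allele, and the mutant is a single strain.

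Nuclear hormone receptors are transcription factors that bind DNA through a zinc-finger domain, and many bind a small lipid-soluble ligand through a separate domain. Ligand binding changes which coactivators or corepressors the receptor recruits, and so whether its target genes are transcribed. Nematodes have a far larger family than insects or mammals, mostly relatives of mammalian HNF4. The worm receptors with known roles act in moulting, fat metabolism, the response to low vitamin B12, sterol balance and detoxification, and for most of the others no role is given here.

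A level is the log2 of a probe's processed signal minus the 75th percentile of its array, so negative levels lie below that percentile. Levels of different genes come from different probes and were not set against each other. A difference is the mean level of the 3 mutant arrays minus that of the 3 wild type arrays. Wild type 1 and mutant 1 shared slide 1, and the 4 arrays numbered 2 and 3 shared slide 2. By the scanner software's flag, 68.1% to 73.1% of all probes on an array exceeded background clearly (well above background). Copies of the same probe varied more on mutants 2 and 3, with a median coefficient of variation of 22.4% and 20.9%, than on the other arrays, at 8.19% to 10.9%. The probe of flcn-1 gave 0.73, 0.16 and 0.20 in wild type 1 to 3 and -0.11, 0.37 and 0.49 in mutant 1 to 3, so the arrays of the strains overlapped. Where this probe lies relative to the lesion is not given, so it does not check the strain labels.

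Most of the receptor family was transcribed at a measurable level in young adults, and a smaller part was not. Such a signal was found on at least 3 arrays for 200 of 280 members (71.4%), against 76.9% of all named genes. On all 6 arrays this held for 183 members (65.4%, against 70.3%). For 62 members (22.1%, against 17.4%) no array gave a signal well above background, and 18 more were seen on only 1 or 2 arrays. Single arrays gave a signal for 191 to 204 members, and the strains overlapped in this number, with 191, 198 and 203 in wild type 1 to 3 and 204, 196 and 198 in mutant 1 to 3. Because whole animals were used, fewer cells of a type and less RNA per cell cannot be told apart for any receptor.

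The family is crowded onto chromosome V, which holds 175 of the 280 members (62.5%) and 25.9% of all named genes with a usable probe. There the receptors were seen more often than other genes, with 126 of 175 (72%) on at least 3 arrays against 61.4% of all named genes of that chromosome. On the other chromosomes the order was the opposite, with 74 of 105 members (70.5%) against 82.3%. Chromosome I stood lowest: 11 of its 24 receptor genes (45.8%) were seen on at least 3 arrays, against 86.2% of all named genes there, and 12 of the 24 gave no signal on any array. On chromosome IV 29 of 34 members (85.3%) were seen, against 80.3%. Chromosome II had 11 of 15 (73.3%, against 77.2%), chromosome III 6 of 8 (75%, against 89.3%) and chromosome X 17 of 24 (70.8%, against 80.5%).

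**Figure D1:**
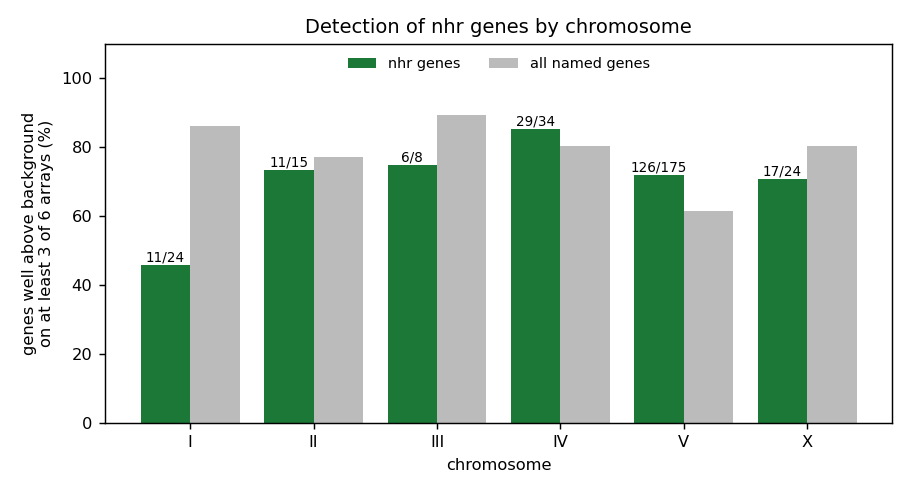
Share of genes (percent, y axis) with a probe well above background on 3 or more of the 6 arrays, by chromosome (x axis), for nhr genes and for all named genes. On chromosome V the receptors, at 72%, lie above all named genes, at 61.4%, and on chromosome I they lie below, at 45.8% against 86.2%.

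The number of probes was part of this comparison. Members with a single probe were seen in 143 of 217 cases (65.9%, against 74.0% of all named genes with a single probe), and members with several probes in 57 of 63 (90.5%, against 84.0%). With single-probe genes alone, the shares on chromosome V were 69.1% of members against 58.5% of all named genes. On the other chromosomes they were 58.5% of members against 79.8%. Of 13 members that the gene table classes as pseudogenes, 8 gave a signal on at least 3 arrays (61.5%, against 40.9% of all pseudogenes with a probe).

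Many receptor genes lie side by side. Neighbours were taken in the gene table's order of protein-coding genes and pseudogenes, with other gene types left out. By this order, 143 of the 280 members were next to another nhr gene. These were seen on at least 3 arrays in 73.4% of cases, against 69.3% of the 137 others. On chromosome V the shares were 77.5% (86 genes) for receptors next to another and 62.5% (40 genes) for the rest. The table held 12 uninterrupted runs of at least 5 receptor genes, of which 10 lay on chromosome V. In the longest run, 8 genes from nhr-186 to nhr-124, only 3 were seen, and in the run of 5 from nhr-196 to nhr-198 none was. All members were seen in the runs from nhr-56 to nhr-96 (7 genes), from nhr-99 to nhr-106 (6 genes) and in 4 runs of 5 genes, from nhr-228 to nhr-226, nhr-122 to nhr-146, nhr-123 to nhr-201 and nhr-179 to nhr-238. Whether probes of similar neighbours also pick up each other's transcripts was not tested, since the probe sequences were not used here.

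Comparing the strains addresses whether transcript levels of these receptors differ in the flcn-1 mutant. No nhr gene differed between RB1035 and WTN2 at an adjusted p of 0.05. Of the 200 members tested, 0 passed with limma, and the lowest adjusted p was 0.65. Across all 19832 features tested the share was 0.101% (0.0202% higher and 0.0807% lower in the mutant), so a list of this size would hold few or none at that share. Without adjustment, 10 members (5%) had a limma p under 0.05, of which 4 were higher and 6 lower in the mutant, against 7.24% of all features (2.9% higher and 4.34% lower). The 3 mutant arrays lay entirely above or below the 3 wild type arrays for 22 members (11%), 11 in each direction, against 12% of all features (5.22% higher and 6.74% lower). These shares lie near the background, and the members were not set apart by them.

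The intervals say how large a difference could have been missed. For 104 of the 200 tested members (52%) the 95% confidence interval of the difference lay within a 2-fold change in either direction, against 37.5% of all features. The median half-width of that interval was 0.71 for members and 0.76 for all features, and the median standard deviation between arrays of a strain was 0.34 against 0.41. For the other 96 members a 2-fold change was not excluded. The differences of the members ran from -1.32 to 1.48, with quartiles at -0.29 and 0.23. Their median was -0.06, against 0.00 for all features.

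By sign, 90 members were higher and 110 lower in the mutant (45% and 55%, against 50.3% and 49.7% of all features), but with normexp background correction, which shifts the median of all features to 0.18, 129 were higher and 71 lower. The median of the members was then 0.12, still below that of all features. Without wild type 3 it was 0.03, with 104 higher and 96 lower, so the sign of the median depended on that array. The spread of the array medians within a strain (SD 0.105) was larger than the members' median difference itself.

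**Figure D2:**
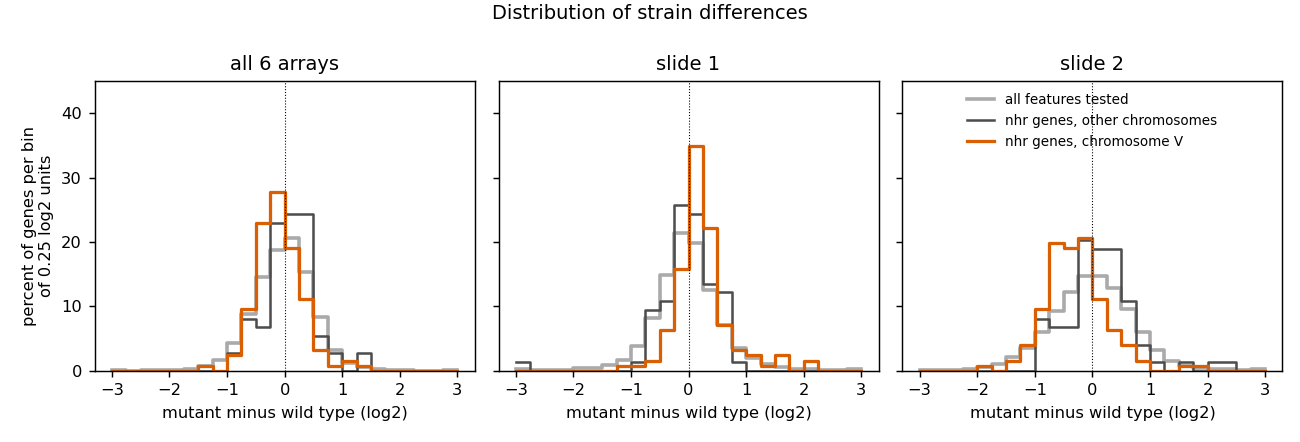
Differences of mutant minus wild type (log2, x axis) as percent of genes per bin (y axis) for the 126 tested nhr genes on chromosome V, the 74 on other chromosomes and all 19832 features, over all arrays, within slide 1 and within slide 2. The chromosome V receptors centre at -0.14 over all arrays (0.06 with normexp, where all features centre at 0.18), at 0.17 on slide 1 and at -0.28 on slide 2, and the others at 0.09, 0.02 and 0.10.

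The slides gave opposite signs for the family. Within slide 1, 132 of 200 members (66%, against 47.9% of all features) were higher in the mutant, and the median difference was 0.15. Within slide 2, 74 members (37%, against 49.8%) were higher, and the median was -0.18. All features had medians of -0.03 and 0.00. A receptor was higher on slide 1 and lower on slide 2 in 91 cases (45.5%, against 23.6% of all features), and the reverse held for 33 (16.5%, against 25.5%). Both slides gave a higher level for 41 members (20.5%, against 24.3%) and a lower level for 35 (17.5%, against 26.6%). Slide 1 has a single array per strain and therefore no error of its own.

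The opposite signs came mostly from chromosome V. Of the 126 members tested there, 72 (57.1%, against 29.2% of all named genes tested on that chromosome) were higher on slide 1 and lower on slide 2. Their median difference was 0.17 on slide 1 and -0.28 on slide 2, against 0.04 and -0.10 for all named genes of chromosome V. Over all arrays 80 of the 126 were lower (63.5%, against 52.8%), with a median of -0.14, but within slide 1 only 32 were. With normexp 53 were lower than 0, but 84 were below the shifted median of all features, and the median relative to it was -0.12. The 74 members on other chromosomes had a median of 0.09, with 44 higher and 30 lower (40.5%, against 48.1% of all named genes tested there). Their slide medians were 0.02 and 0.10, and 56 were higher with normexp, which includes its shift of all features.

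By array, the median deviation of the 126 chromosome V members from their own mean over all arrays was -0.17, 0.08 and 0.28 in wild type 1 to 3 and 0.06, -0.20 and -0.07 in mutant 1 to 3. Wild type 3 was the highest, wild type 1 lay among the mutants, and so the strains overlapped. Without mutants 2 and 3, the arrays with the largest variation between copies of a probe, which leaves mutant 1 as the only mutant array, 61 of the 126 were lower and the median was 0.03. Without wild type 3, 68 were lower, and without wild type 1, 99 were. The part that these arrays play in the chromosome V values was not tested further.

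**Figure D3:**
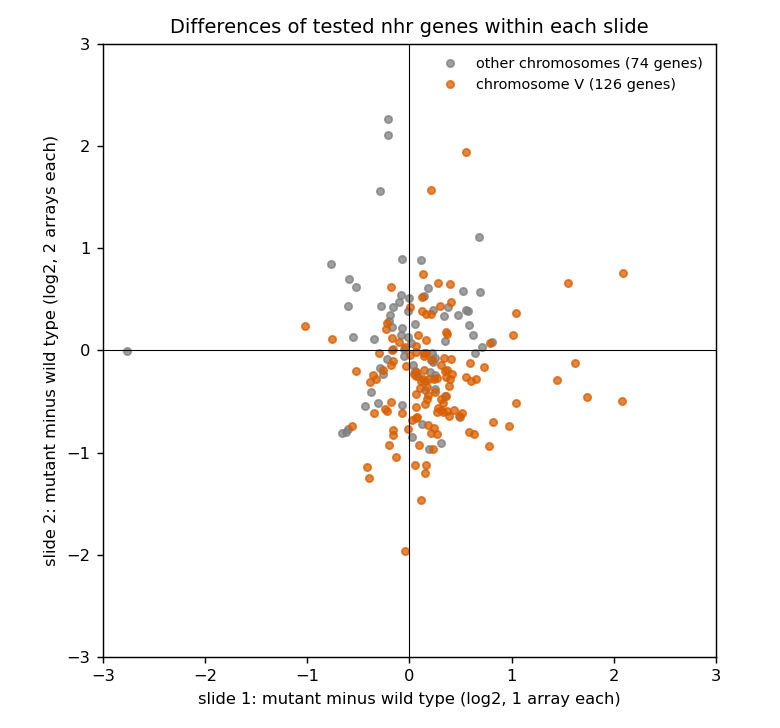
Difference within slide 1 (log2, mutant 1 minus wild type 1, x axis) against the difference within slide 2 (log2, mean of mutants 2 and 3 minus mean of wild types 2 and 3, y axis) for each of the 200 tested nhr genes, on chromosome V or elsewhere. Of the 126 on chromosome V, 72 lie in the lower right part, higher on slide 1 and lower on slide 2.

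On chromosome V, the medians of receptors with and without a receptor neighbour had the same sign within each slide. Of the 86 tested members next to another nhr gene 60 were lower, with a median of -0.17, and of the 40 others 20 were lower, with a median of -0.01. Their slide 1 medians were nearly equal, at 0.17 and 0.16, and their slide 2 medians were -0.33 and -0.22. No test of this difference was made. In the run from nhr-228 to nhr-226 all 5 genes were lower (4 with normexp), with a median of -0.68 that was -0.05 on slide 1 and -0.92 on slide 2. The run from nhr-161 to nhr-42 had 6 of 6 tested genes lower (median -0.32, 4 lower with normexp), and the run from nhr-44 to nhr-144 had 5 of 5 (median -0.42, 4 lower with normexp), both with slide 1 medians above 0, at 0.17 and 0.07. Normexp shifts the median of all features to 0.18, and all tested genes of these lower runs lay below that. The run from nhr-186 to nhr-124 was the opposite, with its 3 tested genes, of 8, higher and a median of 0.46. Its median was 1.05 on slide 1, with a single array per strain, and 0.18 on slide 2. Neighbours can share probe similarity as well as location, and which of these goes with the values was not tested.

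On other chromosomes the tested members were few: 8 of 11 on chromosome I were lower (6 with normexp), 6 of 6 on chromosome III and 13 of 17 on chromosome X were higher (5 and 15 with normexp). Chromosomes II and IV were split, with 6 of 11 and 16 of 29 higher (9 and 22 with normexp). Of the 8 tested pseudogenes 7 were lower, and 4 with normexp, whose counts again include the shift of all features. Beside these counts, 48.1% of all named genes tested outside chromosome V were lower. Shares of all genes on single chromosomes and of all pseudogenes were not taken, so these small counts set no chromosome apart. None of these genes passed the adjusted test.

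The receptors with the smallest p among those higher in the mutant were nhr-241, nhr-43, nhr-260 and nhr-141, each with a limma p under 0.05 before adjustment and an adjusted p of 0.65. No role of these genes is given here. The level of nhr-241, on chromosome V, was -6.33, -6.64 and -6.35 in wild type 1 to 3 and -5.78, -4.81 and -4.28 in mutant 1 to 3. All mutant arrays lay above all wild type arrays, with mutant 3 the highest, and the difference was 1.48 ± 0.39 (SE, n = 3 arrays per strain), with a confidence interval of 0.58 to 2.38. For nhr-43, on chromosome IV, the levels were -2.64, -2.95 and -3.08 in the wild type and -1.96, -1.82 and -1.98 in the mutant. The strains did not overlap and the 3 mutant arrays agreed closely, with a difference of 0.97 ± 0.26 that was 0.68 on slide 1 and 1.11 on slide 2. The value for nhr-260, on chromosome V, was -7.13, -5.67 and -5.84 in the wild type and -5.04, -5.05 and -4.95 in the mutant, a difference of 1.20 ± 0.40. Wild type 1 alone lay far below, and without it the difference was 0.74. The probes of nhr-241 and nhr-260 were each well above background on 2 wild type arrays and all 3 mutant arrays. The mutant arrays alone thus met the requirement of 3 arrays. The signal of nhr-141, on chromosome V, was -7.94, -6.66 and -7.24 in the wild type and -6.39, -6.84 and -5.75 in the mutant, a difference of 0.96 ± 0.42. Its probe was well above background on 3 arrays only, 1 of the wild type and 2 of the mutant, and mutant 2 lay below wild type 2.

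Another 6 members had a limma p under 0.05 before adjustment and were lower in the mutant, all again with an adjusted p of 0.65. The level of nhr-237, on chromosome V, was -2.40, -2.53 and -2.06 in wild type 1 to 3 and -2.82, -3.53 and -3.35 in mutant 1 to 3. Every mutant array lay below every wild type array, and the difference was -0.90 ± 0.30 (SE), with slide values of -0.41 and -1.14. For nhr-115, in the run from nhr-228 to nhr-226, the levels were -1.42, -0.94 and -0.75 in the wild type and -1.47, -3.42 and -2.19 in the mutant. The strains did not overlap, yet wild type 1 and mutant 1 were nearly equal, and the difference of -1.32 ± 0.48 was -0.05 on slide 1 and -1.96 on slide 2. The pseudogene nhr-220 gave -2.19, -2.07 and -1.76 in the wild type and -2.32, -2.93 and -2.99 in the mutant, a difference of -0.74 ± 0.30. Here too mutant 1 lay close to wild type 1.

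The remaining 3 of these had differences of similar size on both slides. The level of nhr-259, on chromosome I, was -2.32, -2.96 and -2.19 in the wild type and -2.98, -3.41 and -3.35 in the mutant, a difference of -0.76 ± 0.31, and mutant 1 and wild type 2 almost touched. For nhr-245, also on chromosome I, the levels were -3.63, -3.86 and -3.98 against -4.24, -4.93 and -4.45, a difference of -0.72 ± 0.29 with no overlap. For nhr-207, on chromosome V, they were -5.41, -5.77 and -5.17 against -5.97, -6.34 and -6.08, a difference of -0.68 ± 0.28 with no overlap. With normexp background correction the differences of nhr-245 and nhr-207 were 0.00 and 0.25, where all features had a median of 0.18. Relative to that median they were -0.18 and 0.07, against -0.72 and -0.68 without normexp, where all features centre at 0.00.

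**Figure D4:**
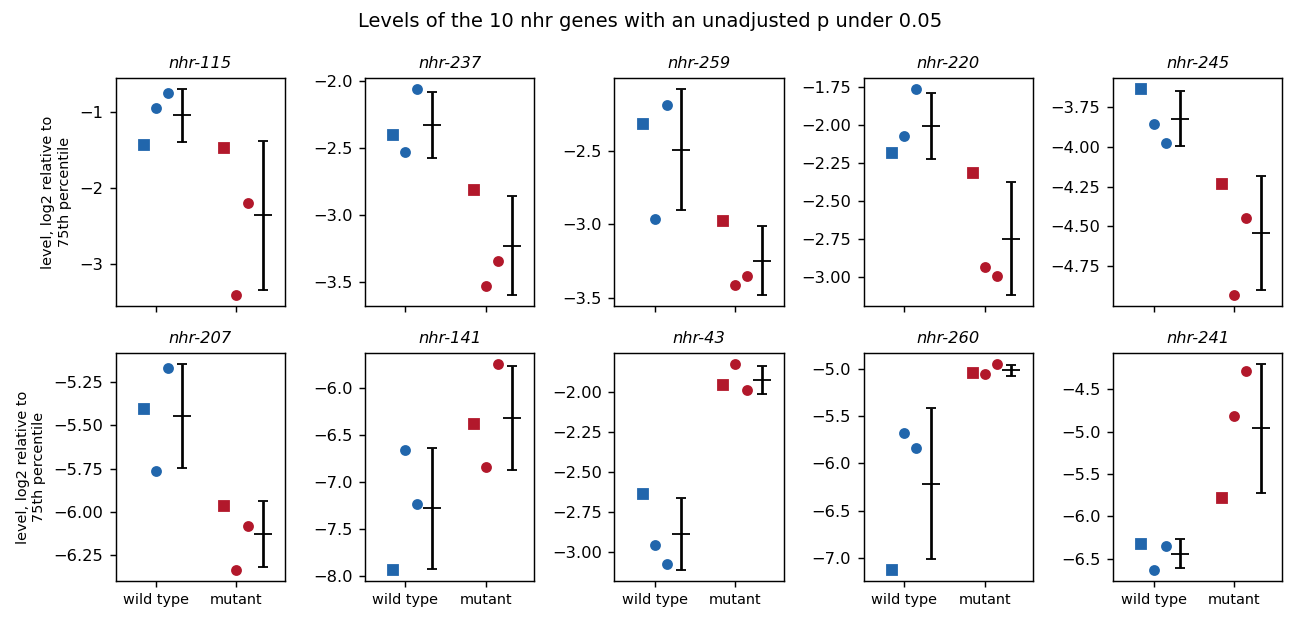
Levels (log2, relative to each array's 75th percentile, y axis) of the 10 nhr genes with a limma p under 0.05 before adjustment (x axis), with squares for the slide 1 arrays, circles for the slide 2 arrays and bars for mean ± SD (n = 3 arrays per strain). The strains do not overlap for 9 of the 10, and for nhr-115 the slide 1 arrays, at -1.42 and -1.47, are nearly level; nhr-245 and nhr-207 are at 0.00 and 0.25 with normexp, where all features centre at 0.18.

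Next by p among members higher in the mutant were nhr-283, nhr-46, nhr-2, nhr-186, nhr-239, nhr-204, nhr-49 and nhr-181, with differences from 0.55 to 1.34. The corresponding members lower in the mutant were nhr-178, nhr-226, nhr-74, nhr-62, nhr-59 and nhr-92, with differences from -0.94 to -0.51. None passed the adjusted test with limma (adjusted p of 0.65 for each). Of these 14, nhr-283, nhr-46, nhr-186, nhr-204, nhr-62 and nhr-59 had arrays that did not overlap between strains. For nhr-283 a single array carried the value: mutant 2 gave -4.67, against -6.46 and -6.54 in mutants 1 and 3 and -6.68 to -7.30 in the wild type. Its probe was well above background on 1 wild type array and all 3 mutant arrays, which alone met the requirement of 3 arrays.

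The receptor nhr-239, on chromosome III, was the only member whose representative probe was well above background on every array of a strain, the mutant, and on none of the other. That probe gave -6.49, -7.63 and -9.32 in the wild type and -6.70, -5.96 and -6.78 in the mutant. Wild type 1 lay within the mutant range. With the wild type set at each array's lowest measurable signal, or its own signal where higher, the mutant was 1.46-fold higher. This is no lower bound, since wild type 1, not well above background, lay above mutant 1, which was. The limma adjusted p was 0.65. The gene passed the filter on dim probes through its mutant arrays alone, so the fold and the p describe these arrays and support no difference. The other 3 probes of nhr-239 were not well above background on any array. No member was seen on every wild type array and on no mutant array.

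Of 27 receptors with roles known from worm genetics, 26 were tested, and each of those 26 was well above background on all 6 arrays. Of these, 18 were higher and 8 lower in the mutant (16 and 10 with quantile normalization), against 50.3% and 49.7% of all features. With normexp 19 were higher and 7 lower, and 9 lay below the shifted median of all features. The adjusted test was passed by 0. For 17 the confidence interval lay within a 2-fold change, against 37.5% of all features. The arrays of the strains overlapped for 25 of the 26, while for 12% of all features they did not overlap.

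The receptors of moulting and development were nearly all higher in the mutant on slide 2 and mostly not on slide 1. Of 9 members of this group 8 were tested and 7 were higher, with a median difference of 0.26 that was -0.17 on slide 1 and 0.50 on slide 2. The level of nhr-23, related to fly DHR3 and mammalian ROR and needed for moulting, was 0.00, -0.30 and -0.85 in wild type 1 to 3 and -0.59, 0.13 and 0.12 in mutant 1 to 3. Mutant 1 lay inside the wild type range, and the difference was 0.27 ± 0.34 (SE), negative on slide 1 at -0.59 and positive on slide 2 at 0.70. All 9 of its probes gave a positive difference, from 0.13 to 0.60. For nhr-25, the counterpart of fly Ftz-F1 and a partner of nhr-23 in moulting, the levels were -3.56, -4.07 and -4.42 against -4.33, -3.40 and -3.41. Its difference of 0.31 ± 0.37 again had opposite signs on the slides, -0.77 and 0.85. With mutant 1 as the only mutant array, against all 3 wild type arrays, the values were -0.21 and -0.31, which largely repeats slide 1.

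The other developmental receptors had differences from -0.16 to 0.56. The difference of nhr-91, related to mammalian GCNF, was 0.24 ± 0.32, with slide values of -0.52 and 0.62. For nhr-6, an NR4A receptor needed to form the spermatheca, it was 0.56 ± 0.38 and positive on both slides, at 0.53 and 0.58. For nhr-41, related to fly DHR78, it was 0.45 ± 0.30 with slide values of 0.56 and 0.39. The tailless relative nhr-67, which acts in the uterus and vulva, had a difference of 0.05 ± 0.30, and nhr-111 had -0.16 ± 0.28. The difference of nhr-236 was 0.23 ± 0.33. The E75 and Rev-erb relative nhr-85 gave no signal well above background on any array.

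Of 11 marker genes of the moulting cycle 10 were higher in the mutant, against 50.3% of all features. The median of the 11 was 0.62, with 0.08 on slide 1, where the receptors' median was negative, and 0.94 on slide 2. Before adjustment 4 had a limma p under 0.05, against 7.24% of all features, and 0 passed the adjusted test. Among the 4 was fbn-1, with a difference of 1.42. Its probe was well above background on 1 wild type array and all 3 mutant arrays. The mutant arrays alone met the requirement of 3 arrays, so its p supports no difference. For all 11, the log2 of the summed unlogged levels, in which the brightest markers weigh most, was 0.44 to 0.58 in the wild type. In the mutant it was 0.82 to 1.26. Each marker was well above background on at least 1 array. The part of moulting stage in the receptor values was not tested.

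The receptors of fat and energy metabolism showed no common direction. All 9 were tested, 6 were higher and 3 lower (4 and 5 with quantile normalization), and the median difference was 0.01. The level of nhr-49, an HNF4 relative that drives fatty acid desaturation and beta-oxidation, was 1.61, 1.45 and 1.14 in wild type 1 to 3 and 1.54, 2.39 and 2.00 in mutant 1 to 3. Mutants 2 and 3 lay above every wild type array and mutant 1 did not, so the difference of 0.57 ± 0.31 (SE) was -0.07 on slide 1 and 0.90 on slide 2. Its 4 probes gave differences of 0.33 to 0.57. For nhr-62, needed for the lifespan response to dietary restriction, the levels were -0.89, -0.99 and -0.80 in the wild type and -1.33, -1.33 and -1.55 in the mutant. This was the only receptor with a listed role whose arrays did not overlap, and its difference was -0.51 ± 0.25, with slide values of -0.44 and -0.54 and a limma adjusted p of 0.65. Among all features 6.74% were lower without overlap.

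The level of nhr-80, which promotes oleic acid synthesis, was 0.70, 0.86 and 0.42 in the wild type and 0.90, -0.22 and 1.32 in the mutant. The difference was 0.01 ± 0.41, and mutants 2 and 3 lay on opposite sides of the wild type. The nhr-49 partners nhr-13 and nhr-66 had differences of 0.36 ± 0.28 and 0.28 ± 0.31, each negative on slide 1. The remaining members lay near zero, with 0.25 for nhr-76, a receptor in serotonin-driven fat loss, -0.12 for nhr-69, -0.07 for nhr-64 and 0.00 for nhr-28. Among 8 known targets of nhr-49 and nhr-80, 6 were higher and 0 passed the adjusted test. The desaturase gene fat-5 gave 1.68, 1.04 and 0.37 against 1.48, 3.04 and 1.95, a difference of 1.13 ± 0.48 that came from slide 2. The related fat-7 ranged from -2.54 to 3.25 over the 6 arrays with no order by strain.

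None of the 3 receptors of the vitamin B12 and propionate response passed the adjusted test. Of these, 2 were lower in the mutant, with a median of -0.18, and with normexp or the series table all 3 were lower. The level of nhr-68, which with nhr-10 switches on the propionate shunt, was 3.00, 2.58 and 3.11 in the wild type and 2.67, 2.46 and 2.66 in the mutant. The strains overlapped, and the difference was -0.30 ± 0.27, with a confidence interval of -0.92 to 0.32. For nhr-10 the levels were 0.11, 0.14 and 0.78 against 0.36, 0.41 and 0.36, a difference of 0.04 ± 0.29. For nhr-114, which protects the germline on diets poor in vitamin B12, they were 3.57, 3.61 and 2.64 against 2.81, 3.24 and 3.23. Wild type 3 was the lowest of these 6 arrays, and the difference was -0.18 ± 0.34. The shunt genes acdh-1, hphd-1 and acdh-9 had differences of 0.07, 0.26 and -0.23, none passed the test, and with normexp all 3 were negative.

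Among receptors of sterol balance and detoxification, nhr-8, which acts in cholesterol handling and toxin resistance, gave 1.63, 1.97 and 2.30 in the wild type and 1.41, 1.97 and 2.14 in the mutant. The ranges largely coincided, and the difference was -0.13 ± 0.32. The large value in this group belonged to nhr-48, a relative of nhr-8 and daf-12, and it rested on a single array. Its brightest probe gave -1.0, -0.44 and -4.81 against -1.22, -0.32 and -0.39, a difference of 1.44 ± 1.00, and without wild type 3 the difference was 0.08. The other 2 probes of nhr-48 gave 0.49 and 0.27. For nhr-176, which controls the breakdown of the drug thiabendazole, the difference was -0.24 ± 0.30, and for nhr-86, a sensor of a bacterial toxin, it was 0.31 ± 0.27.

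The level of nhr-14, which acts in intestinal iron uptake, was -1.24, -1.20 and -0.91 in the wild type and -0.60, -1.46 and -0.71 in the mutant. Mutant 2 was the lowest of the 6 arrays, and the difference was 0.20 ± 0.32. For nhr-2, a receptor of the early embryo, the levels were -0.62, -2.06 and -2.08 against -0.91, -0.71 and -0.32. Wild type 1 lay among the mutants, and the difference of 0.94 ± 0.43 was -0.29 on slide 1 and 1.56 on slide 2. All 10 oocyte markers were higher too, against 50.3% of all features (median 0.54, -0.17 on slide 1 and 0.88 on slide 2). Before adjustment 1 of them had a limma p under 0.05, and 0 passed the adjusted test. The log2 of their summed unlogged levels was 6.49 to 7.46 in the wild type and 7.17 to 7.77 in the mutant. Of 9 sperm markers 8 were lower, against 49.7% of all features (median -0.64, -0.41 on slide 1 and -0.94 on slide 2). Before adjustment 4 of the 9 had a limma p under 0.05, against 7.24% of all features, and 0 passed the adjusted test. For all 9, the log2 of the summed unlogged levels was 5.64 to 5.80 against 4.57 to 5.24. Each of these markers was well above background on at least 1 array. The part of germline content in the value of nhr-2 was not tested.

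**Figure D5:**
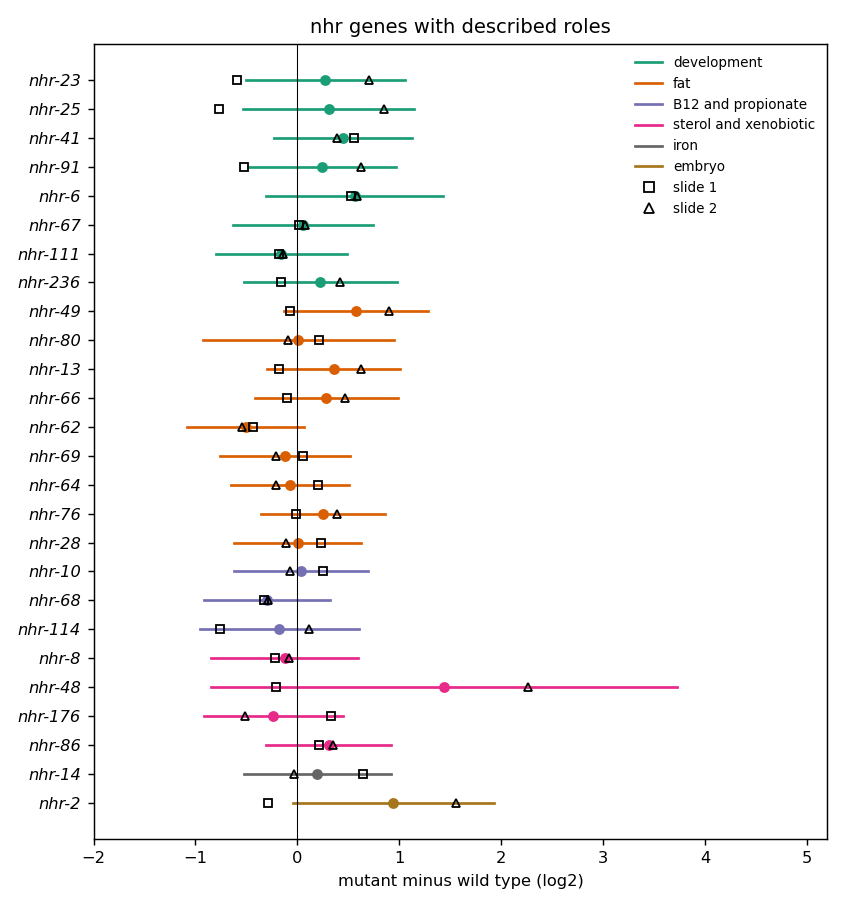
Differences of mutant minus wild type (log2, x axis) with 95% confidence intervals (n = 3 arrays per strain) for the 26 tested nhr genes with known roles, grouped by role (y axis), with the slide 1 and slide 2 differences as separate symbols. Every interval crosses 0, the widest is that of nhr-48, at -0.85 to 3.72, and the slide differences lie on opposite sides of 0 for 18 of the 26, nhr-23 and nhr-2 among them. Of all features, 23.6% were higher on slide 1 and lower on slide 2, and 25.5% the reverse. Of the 200 tested nhr genes these shares were 45.5% and 16.5%.

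Most receptors with other names, and the coregulators that work with the family, had opposite signs on the slides, as nhr-23 and nhr-2 did. The dafachronic acid receptor gene daf-12 gave -1.13, -1.29 and -2.47 in the wild type and -1.63, -0.98 and -1.08 in the mutant, a difference of 0.39 ± 0.40 with slide values of -0.50 and 0.84. The sex determination receptor gene sex-1 gave -1.35, -1.62 and -2.53 against -1.38, -0.78 and -0.54, a difference of 0.94 ± 0.39. Its limma p was 0.04 before adjustment and 0.65 after, and mutant 1 overlapped the wild type. The neuronal receptor gene unc-55 had a difference of 0.34 ± 0.30. Its probe was well above background on 1 wild type array and all 3 mutant arrays, which alone met the requirement of 3 arrays. That value thus supports no difference. The neuronal fax-1 and odr-7 did not pass the filter on dim probes. The Mediator subunit gene mdt-15, whose product works with the nhr-49 protein, had a difference of 0.48 ± 0.39. The daf-12 corepressor gene din-1 and the lipid regulator gene sbp-1 had 0.33 ± 0.47 and 0.51 ± 0.38. For each of these 3 wild type 3 was the lowest array, and slide 1 gave the opposite sign.

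Genes for the making and turnover of dafachronic acid, the steroid ligand of daf-12, had negative differences, though with normexp 2 of the 3 tested were positive. Of 5 such genes 3 were tested and 0 passed the adjusted test. The oxygenase gene daf-36 gave -0.32, -0.92 and -0.08 in the wild type and -0.03, -2.56 and -1.86 in the mutant, a difference of -1.04 ± 0.60. Mutant 1 was the highest of the 6 arrays and mutants 2 and 3 were the lowest. The cytochrome P450 gene daf-9 and the methyltransferase gene strm-1 had differences of -0.04 and -0.06.

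Several probes of the same receptor gene often disagreed in sign. Of 50 tested members with more than 1 usable probe, 31 had all probes on the same side of zero and 19 did not. The median range between the probes of a gene was 0.43, and the largest was 1.17. Beside nhr-48, the widest ranges belonged to nhr-112, whose 3 probes gave -0.99, -0.28 and 0.16, and to nhr-95, whose 4 usable probes gave -0.41, 0.06, 0.38 and 0.71. A difference between probes of 1 gene was thus of the same order as most differences between the strains.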

How the data were processed

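Per the file headers, spot intensity values came from Agilent Feature Extraction 10.7.3.1, on probes designed against build ce4 (WS170). The deposited processed signal intensity is background-subtracted and divided by a fitted surface (none on mutant 2), and it is not normalized between arrays. How the log2 values of the deposited series table were made is not stated.

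Control spots were left out, copies of a probe averaged and 149 probes with an outlier flag dropped. Levels are log2 processed signals from which the 75th percentile of the array was subtracted. Probes needed a signal well above background on 3 or more of the 6 arrays, and the brightest represented its gene. Of the members' probes, 395 were named by sequence name and 56 by accession, through a gene table of assembly WBcel235, which served for names, chromosomes and gene order only. Limma 3.58.1 in R 4.3.3 (lmFit, eBayes, two-sided) was run on 19832 features with Benjamini-Hochberg adjustment at 0.05, and checked on simulated data. With 3 arrays per strain, the number of arrays limits the precision.

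Named members are the 12 with the smallest p in each direction, those seen in a single strain, those in lists of known roles and the 3 with the widest disagreement between probes. Members and lists were chosen with earlier results of these data known. Alternatives were other background corrections, normalizations, filters and probe summaries, the series table, slide and replicate blocks, single slides and leaving out arrays. A run of neighbours is an unbroken series of nhr genes among the protein-coding genes and pseudogenes of the table, with other gene types left out.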

Additional observations from a re-analysis of the deposited data

How the results depend on the processing

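No member passed the adjusted limma test under any alternative run, while 1 to 30 of all features did and 1 to 24 members had an unadjusted p under 0.05. The replicate block left the median at -0.06 with 0 members and 30 features called. Deviations of same-numbered arrays from their strain mean correlated at 0.12, 0.12 and 0.02, and those of differently numbered arrays at -0.37 to 0.25. Deviations within a strain cancel out, which constrains these values, so they cannot settle whether the replicate numbers pair the arrays. Normexp on median signals shifted the median of all features to 0.18, the members' median to 0.12, the count of lower members to 71 and that on chromosome V to 53. Without a filter 139 of 280 members were higher. Slide 1 gave a median of 0.15, 68 lower members and 32 lower on chromosome V, and slide 2 a median of -0.18. Leaving out each array gave medians of -0.13 to 0.027, 72 to 104 higher and 96 to 128 lower members, 68 to 99 lower on chromosome V and 196 to 199 seen. Why the slides and normexp differ was not tested. Normexp on mean spot signals was not run, because that column was not in the files used.

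Of 49 tested named members, 29 kept their direction under every alternative with a test. That leaves out slide 1, which has no test. Within it, nhr-2, nhr-13, nhr-48, nhr-49, nhr-66, nhr-76, nhr-178, nhr-226 and nhr-239 had the opposite sign, and the others of these 29 the same sign. Directions turned with normexp for nhr-8 (0.27), nhr-10 (-0.058), nhr-111 (0.36), nhr-112 (0.24), nhr-207 (0.25) and nhr-245 (0.0038). They turned with quantile normalization for nhr-28 (-0.0087) and nhr-80 (-0.0081), with the mean of a gene's probes for nhr-8 (0.053) and nhr-28 (-0.12), and with the series table for nhr-8 (0.28) and nhr-10 (-0.062). Within slide 2 they turned for nhr-10 (-0.074), nhr-14 (-0.029), nhr-28 (-0.11), nhr-80 (-0.090) and nhr-114 (0.11). Leaving out an array, the values ran from -0.081 to 0.26 for nhr-10, -0.16 to 0.086 for nhr-28, -0.13 to 0.22 for nhr-67, -0.054 to 0.19 for nhr-95, -0.29 to 0.088 for nhr-8, -0.24 to 0.034 for nhr-69, -0.32 to 0.45 for nhr-80 and -0.072 to 0.46 for nhr-236. Without mutants 2 and 3, an alternative added after seeing the data that leaves 1 mutant array, assumed to vary like the wild type, they turned for nhr-23 (-0.21), nhr-25 (-0.31), nhr-28 (-0.092), nhr-64 (0.083), nhr-91 (-0.19), nhr-92 (0.011), nhr-95 (-0.19), nhr-111 (0.090), nhr-112 (0.22), nhr-176 (0.030) and nhr-236 (-0.25).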
